A study of Homo sapiens with 9 samples.

Results

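The genes described here are 10 amino acid transporters of the plasma membrane: SLC3A2, SLC7A5, SLC7A11, SLC43A1, SLC1A5, SLC1A4, SLC38A1, SLC38A2, SLC7A1 and SLC6A9. They were taken by gene symbol from a table of 36225 genes, and each matched 1 row. RNA had been sequenced in RBE, a human cell line long in use that was derived from a bile duct cancer of the liver (intrahepatic cholangiocarcinoma). The cells carried lentivirus with a scramble hairpin (called control here), a hairpin against IDH1 (shIDH1) or a hairpin against JOSD2 (shJOSD2), with 3 libraries of each and 9 in all. IDH1 encodes the cytosolic isocitrate dehydrogenase and JOSD2 a deubiquitinase, and the title of the series also mentions the coactivators YAP and TAZ. All groups share the cell line and the viral infection, and each knockdown group is known only by the name of its target. Nothing in the labels tells if the replicates were infected separately, so the p-values cover library-to-library spread that may be technical only.

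Cells take up amino acids that they cannot make, or cannot make fast enough, through such carriers. SLC3A2, also called 4F2hc or CD98, is a glycoprotein that carries no amino acid itself and brings a light chain to the cell surface. SLC7A5 (LAT1) is the light chain that exchanges glutamine for leucine and other large neutral amino acids, and SLC7A11 (xCT) the one that exchanges glutamate for cystine, the source of cysteine for glutathione. SLC43A1 (LAT3) carries branched-chain amino acids and phenylalanine without a heavy chain. SLC1A5 (ASCT2) and SLC1A4 (ASCT1) exchange small neutral amino acids, and SLC1A5 is a main route for glutamine. SLC38A1 (SNAT1) and SLC38A2 (SNAT2) bring in glutamine, alanine and other neutral amino acids with sodium, SLC7A1 (CAT1) brings in arginine and lysine, and SLC6A9 (GLYT1) glycine. When amino acids run short, the kinase GCN2 slows translation and the transcription factor ATF4 is made, which binds C/EBP-ATF response elements and switches on many of these carriers. MYC binds E-boxes and NRF2, encoded by NFE2L2, binds antioxidant response elements, and each has transporter targets of its own.

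The C/EBP-ATF letters found near the starts of 5 transporters are shown first, since the transporters were set beside ATF4 below. RefSeq promoter windows (GRCh38.p14, 250 bases before to 50 after a start) were at hand for 9 of the 10 genes, with 16 windows in all, and none for SLC7A11. The letters TGATGNAA, searched on both strands (TTNCATCA is the reverse), were in 5 of the 16 windows and so in 5 of 9 genes. Over all genes with such a window the share was 4.46%, and over all windows 3.62%. The stretches below are written 5′ to 3′ on the strand of the gene, with the match in capitals.
SLC1A4: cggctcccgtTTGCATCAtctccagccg
SLC3A2: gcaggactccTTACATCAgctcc
SLC38A1: cagacccgaaTGATGAAAagggatcagc
SLC7A1: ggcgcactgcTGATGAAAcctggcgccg
SLC1A5: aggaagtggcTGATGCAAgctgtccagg

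The SLC1A4 stretch (chr2:64989382-64989409, plus strand) began its match 7 bases before a start that lies inside the gene and outside exons of GENCODE release 29. In SLC3A2 (chr11:62881726-62881748, plus strand) the match began 37 bases after a start, in an annotated untranslated region. In SLC38A1 (chr12:46266503-46266530, minus strand) it began 4 bases before a start, inside the gene and outside its exons. In SLC7A1 (chr13:29595664-29595691, minus strand) it began 7 bases after the start, in an untranslated region. In SLC1A5 (chr19:46784894-46784921, minus strand) it began 97 bases before an internal start, in an untranslated region of a longer transcript. The windows of SLC38A2, SLC7A5, SLC43A1 and SLC6A9 did not hold these letters, which says nothing on elements elsewhere in the genes. A match of letters is not a measured binding site.

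The palindromic E-box letters CACGTG were in 3 of the 16 windows, against 7.26% of all windows. By gene they were in the windows of 3 of the 9 genes, against 8.78% of all genes. These 3 are shown because MYC, a factor that binds such letters, was higher under both hairpins (below).
SLC7A5: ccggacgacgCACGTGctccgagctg
SLC43A1: gcgggcgagtCACGTGcgcgtgaaac
SLC1A5: cgggagtggtCACGTGgacaggacgg

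They lie upstream of SLC7A5 (chr16:87869622-87869647, minus strand), upstream of SLC43A1 (chr11:57515799-57515824, minus strand) and in an untranslated region of SLC1A5 (chr19:46787328-46787353, minus strand). The core of the antioxidant response element, TGACNNNGC on either strand, was in windows of SLC3A2, SLC7A1, SLC7A5 and SLC1A5, or 4 of 9 genes against 16.1% of all. The TEAD letters GGAATG, on either strand, were in 1 of the 9, SLC1A5, against 16.7% of all genes. By window, the antioxidant core was in 4 of 16 against 13.35% of all windows. The TEAD letters were in 1 of 16 against 14.03%.

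Library totals lay between 66036276 and 71612713 deposited counts. The level of each hairpin's target was checked in every library. IDH1 stood at 45.6, 39 and 47.4 FPKM (a fragment count per unit of transcript length and of sequencing depth) in control replicates 1, 2 and 3, at 12.4, 13.1 and 12.3 in shIDH1 and at 32.7, 35.2 and 35.5 in shJOSD2. JOSD2 stood at 6.66, 6.31 and 6.15 FPKM in control, at 1.5, 1.85 and 1.7 in shIDH1 and at 0.771, 0.708 and 0.906 in shJOSD2. Both targets were thus lowest under their own hairpin, and each was also lower than control under the other hairpin, with ranges apart. Under the IDH1 hairpin the log2 change of JOSD2 was -1.9 ± 0.16 (adjusted p = 7.69e-07, edgeR; SE), and under the JOSD2 hairpin that of IDH1 was -0.50 ± 0.07 (adjusted p = 8.66e-05, edgeR). The bile duct keratin KRT19 was at 408 to 599 FPKM, and all 6 endothelial markers were under 1 FPKM in every library.

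A few libraries stood apart in the genes discussed here. In shIDH1 replicate 1 all 10 transporters lay below the mean of their group, with a median log2 deviation of -0.28, while 10109 of all 21492 tested genes lay below theirs. The same library was below its group in 20 of 21 tested ATF4 targets other than the transporters, with a median of -0.31. Counts this lopsided were not particular to it. Control replicate 1 was below its group in 19 of the 21 targets, with a smaller median of -0.07, and in 7 of the 10 transporters. In shIDH1 replicate 2, 1 of the 21 targets and 0 of the 10 transporters lay below, with medians of 0.13 and 0.17. Deviations within a group are not independent of each other. In control replicate 3, 9 of the 10 transporters lay above the control mean, with a median of 0.14. The control libraries were split in another way. APOA1, an apolipoprotein gene of hepatocytes, was at 2.91 FPKM in control replicate 1 and at 40.1 and 45.6 in the other control libraries. It was at 2.51 to 3.25 FPKM in shIDH1 and at 3.04 to 6.24 in shJOSD2. Control replicates 2 and 3 thus stood apart from all other libraries in this gene. The split of the controls was not confined to APOA1. From the lowest to the highest control library, ALB was at 0.104, 1.23 and 1.43 FPKM and APOB at 0.0438, 0.491 and 0.526. TTR was at 0.0376, 1.32 and 1.35 FPKM in the same way. SLC7A8 and MTHFD2 (below) were also lowest among the controls in replicate 1. SERPINA1, another hepatocyte marker, was at 33.6 to 37.8 FPKM in control and was not split. Several transporter results that rest on these libraries are given with and without them, but those of MTHFD2 and the hepatocyte genes are not.

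**Figure D1:**
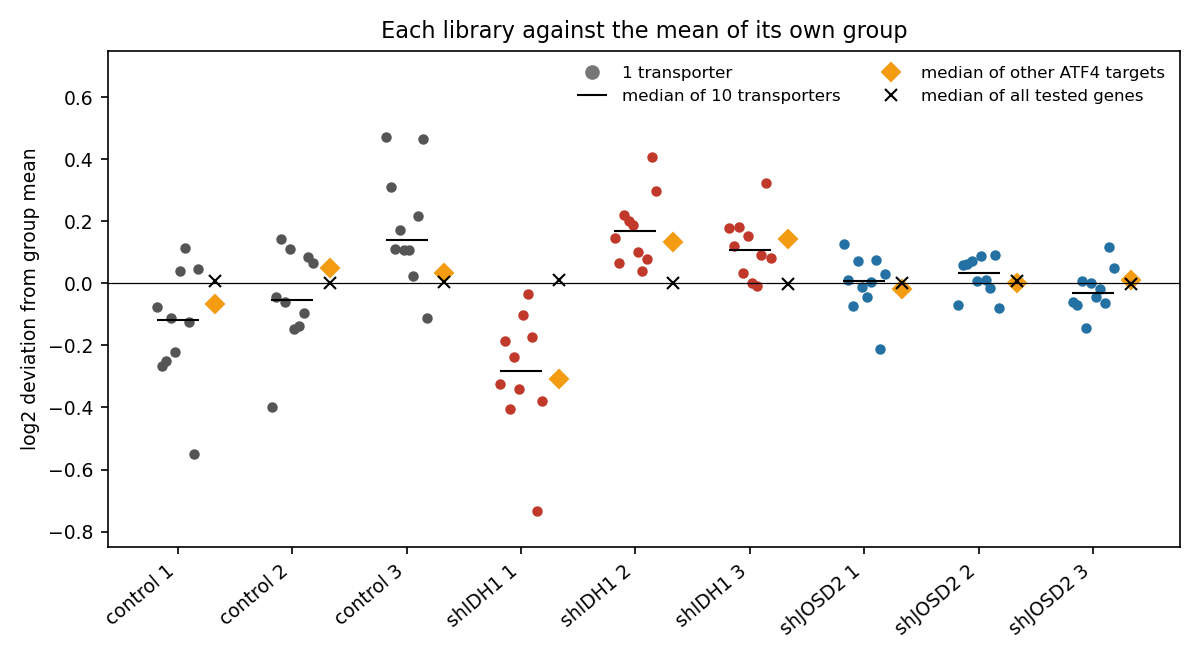
Each of the 9 libraries on the horizontal axis, and on the vertical axis the log2 deviation of the scaled counts from the mean of the library's own group. Points are single transporters, bars their median, diamonds the median of the other ATF4 targets and crosses the median of all tested genes; in shIDH1 replicate 1 all 10 transporters and the diamond lie below 0 while the cross is at 0.01.

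In control cells the 10 transcripts covered a wide range of levels per length. SLC1A5 and SLC7A5 were highest, at 68.3 ± 7.52 and 67.3 ± 13.8 FPKM (SD, n = 3 libraries, as for all FPKM means here), and their ranges overlapped. SLC38A2 followed at 49.6 ± 5.60 FPKM, above SLC38A1 at 39 ± 4.33, SLC7A1 at 30.2 ± 4.28 and SLC3A2 at 25.3 ± 3.18, of which neighbours overlapped. The other four were far lower, with SLC43A1 at 6.65 ± 0.434, SLC1A4 at 5.50 ± 0.615, SLC7A11 at 3.41 ± 1.10 and SLC6A9 at 1.42 ± 0.473 FPKM. Among all tested genes SLC1A5 lay at the 97.8th percentile of control FPKM and SLC6A9 at the 49.0th. Under shIDH1 the order changed: SLC38A2 led at 107 ± 2.53 FPKM, apart from SLC1A5 below it, and SLC3A2 moved from the sixth place to the third, where it overlapped SLC1A5 and SLC7A5. In shJOSD2 cells SLC38A2 also led, at 43.9 ± 0.330 FPKM, apart from SLC1A5 at 35.2 ± 0.416 and SLC7A5 at 29.9 ± 1.24.

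**Figure D2:**
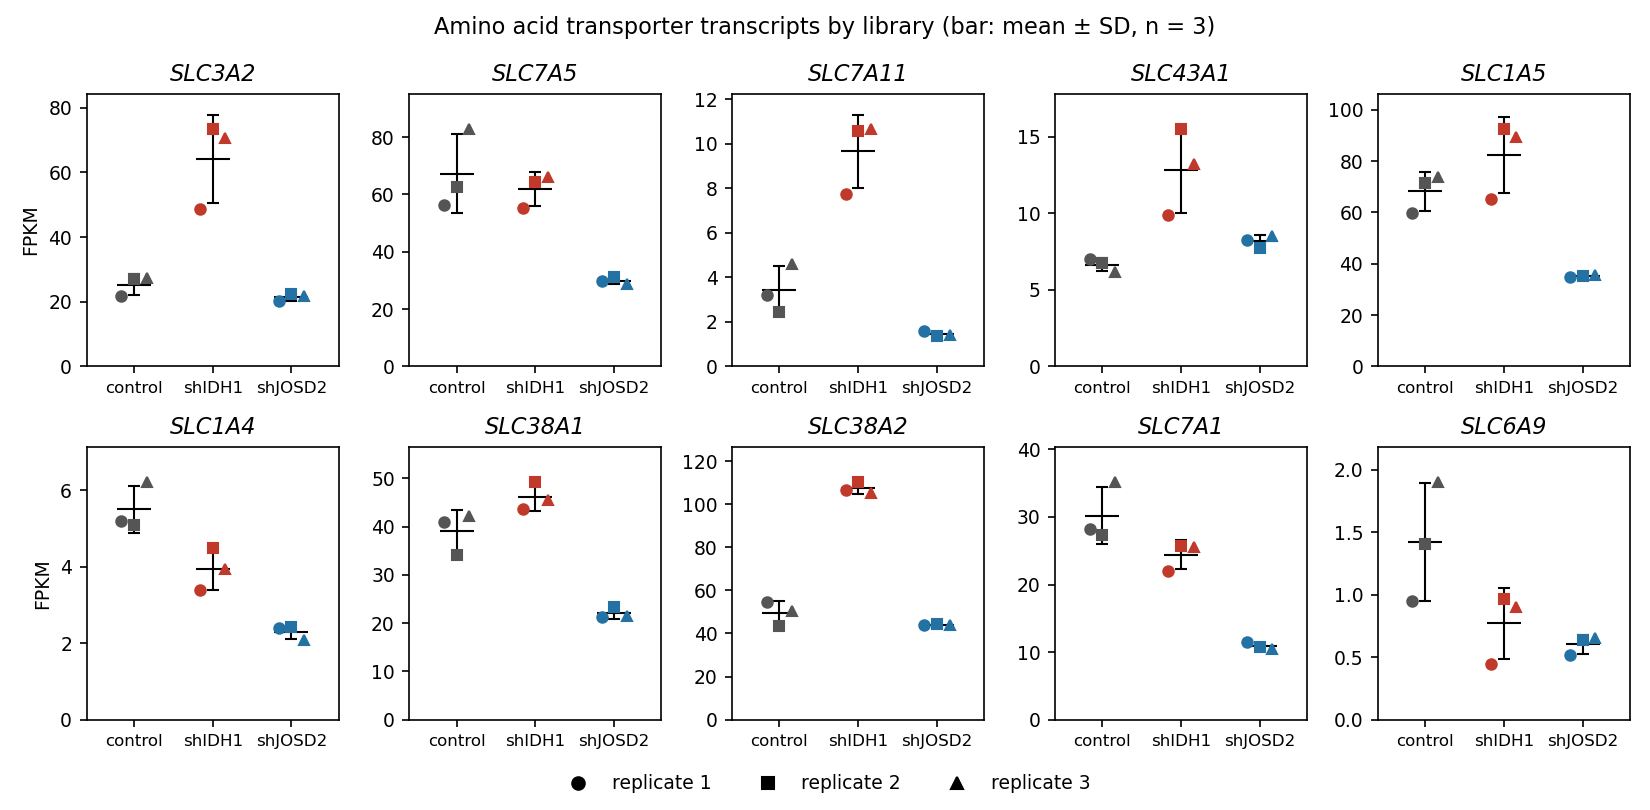
FPKM of each of the 10 transporters (vertical axes, each starting at 0) in the 3 groups (horizontal axes), with 1 point per library, the marker shape giving the replicate, and bars for the mean ± SD of 3 libraries. SLC3A2, SLC7A11, SLC43A1, SLC38A2 and, by a small margin, SLC38A1 are highest in all 3 shIDH1 libraries. All 3 shJOSD2 libraries are the lowest for SLC7A5, SLC7A11, SLC1A5, SLC1A4, SLC38A1 and SLC7A1.

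The comparison of shIDH1 with control asks how the transporters differ under the IDH1 hairpin. JOSD2 was also lower there (log2 change -1.90, beside -1.80 for IDH1), so loss of IDH1 and loss of JOSD2 cannot be told apart. Of the 10, 5 were higher (SLC7A11, SLC3A2, SLC38A2, SLC43A1 and SLC38A1) and 3 were lower (SLC6A9, SLC1A4 and SLC7A1), while SLC7A5 and SLC1A5 did not pass the test. The test was edgeR's quasi-likelihood test on the deposited counts, with Benjamini-Hochberg adjustment over 21492 genes and a threshold of 0.05. It called 50.1% of all tested genes, 24.5% higher and 25.6% lower, so 8 of 10 stands against a large background. The median log2 change of the 10 was 0.25, and that of all tested genes 0.01. The FPKM ranges of the groups were apart for 7 of the 10, 5 higher and 2 lower, and for 56.9% of all genes, 28.6% higher and 28.3% lower. In such bulk RNA, fewer cells with a transcript and less of it per cell cannot be told apart. The comparison of shJOSD2 with control gave 8 lower and none higher (0 of 10), with SLC3A2 and SLC43A1 not called. There the test called 38.3% of all genes, 20.1% lower, and the median log2 change was -1.21 for the transporters and 0.03 for all genes. Ranges were apart for 8 of the 10, 7 lower and SLC43A1 higher, against 51.7% of all genes, 17.4% lower and 34.2% higher. The pair of comparisons share the 3 control libraries. Set directly against each other, shIDH1 exceeded shJOSD2 in 9 of the 10 transporters and fell below it in 0, with SLC6A9 not called. In that comparison 44.8% of all genes were called, 20.8% higher and 24% lower in shIDH1, and the median was 1.26 for the transporters against -0.06 for all genes. The same 9 had ranges apart, all higher in shIDH1, against 58.4% of all genes, 20.7% higher and 37.7% lower.

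**Figure D3:**
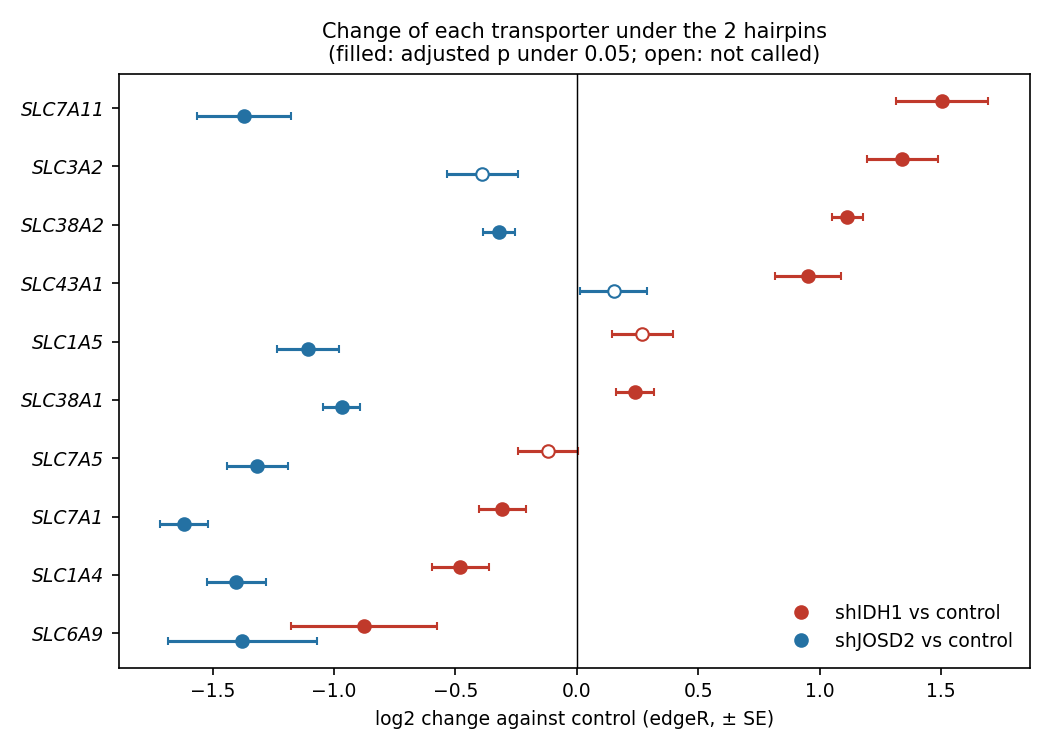
Fitted log2 change against control (horizontal axis, bars ± SE) of each transporter (vertical axis) in shIDH1 cells (red) and shJOSD2 cells (blue), filled where the adjusted p of edgeR was under 0.05. The shIDH1 values run from -0.88 for SLC6A9 to 1.51 for SLC7A11, and the shJOSD2 values from -1.62 for SLC7A1 to 0.15 for SLC43A1.

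SLC3A2, the heavy chain (ENSG00000168003; chromosome 11, 62856102 to 62888875, plus strand of GRCh38, as for all genes here), was at 21.6, 27 and 27.3 FPKM in control replicates 1, 2 and 3. It was at 48.5, 73.4 and 70.7 FPKM in shIDH1 and at 20.2, 22.4 and 21.7 in shJOSD2. All shIDH1 libraries lay above all others, the lowest being replicate 1, and the shJOSD2 range reached into the control range. The rise in shIDH1 cells was 1.34 ± 0.15 on the log2 scale (SE; adjusted p = 7.96e-06, edgeR), or 2.53-fold. In shJOSD2 cells the log2 change was -0.39 ± 0.15 and did not pass (adjusted p = 0.0525, edgeR). Without control replicate 1 that change was -0.50 and passed (adjusted p = 0.0195, edgeR), as it did without shIDH1 replicate 1, which enters only through the shared spread (-0.39, adjusted p = 0.00628, edgeR). It also passed with RLE scaling factors (-0.40, adjusted p = 0.0474, edgeR) and with only the 2 groups compared (-0.39, adjusted p = 0.0105, edgeR). In 17 of 23 alternative settings it stayed not called.

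SLC7A11 (ENSG00000151012; chromosome 4, 138164097 to 138242349, minus strand) carries cystine in. It was at 3.20, 2.43 and 4.60 FPKM in control, at 7.75, 10.6 and 10.7 in shIDH1 and at 1.58, 1.39 and 1.40 in shJOSD2. The 3 groups did not overlap, and control replicates spread the most for their level. SLC7A11 rose by 1.51 ± 0.19 in shIDH1 cells (adjusted p = 2.67e-05, edgeR) and fell by 1.37 ± 0.19 in shJOSD2 (adjusted p = 0.000134, edgeR). Between the hairpins the log2 difference was 2.88 ± 0.20, or 7.34-fold, which was the largest of the 10. An antisense gene, SLC7A11-AS1, overlaps it on the other strand (chromosome 4, 138057464 to 138178177). Its counts were 18, 21 and 19 in control, 167, 122 and 207 in shIDH1 and 16, 6 and 8 in shJOSD2. The counts of SLC7A11 itself ran from 934 to 7694. Since the strand setting of the counting is not given, reads of the antisense gene and of SLC7A11 cannot be told apart, though the counts of the former were far smaller.

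SLC7A5 (ENSG00000103257; chromosome 16, 87830023 to 87869507, minus strand), the leucine carrier, behaved otherwise. It was at 56.4, 62.6 and 82.8 FPKM in control, at 55.2, 64.5 and 66.2 in shIDH1 and at 30.0, 31.2 and 28.7 in shJOSD2. The shIDH1 and control ranges overlapped, and control replicate 3 was the highest library of all. The log2 change in shIDH1 cells was -0.12 ± 0.12 (adjusted p = 0.457, edgeR), and it was 0.0615 without control replicate 3. SLC7A5 fell by 1.32 ± 0.13 in shJOSD2 (adjusted p = 6e-06, edgeR), or 2.49-fold. Its pseudogenes SLC7A5P1 and SLC7A5P2 held at most 4 and 34 counts in a library, against 9439 to 27942 for SLC7A5.

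SLC43A1 (ENSG00000149150; chromosome 11, 57484534 to 57515780, minus strand) was the transporter that did not have a lower level in shJOSD2 cells. It was at 7.02, 6.74 and 6.17 FPKM in control, at 9.89, 15.5 and 13.2 in shIDH1 and at 8.29, 7.73 and 8.51 in shJOSD2. All libraries of both knockdown groups lay above all control libraries in FPKM. It rose by 0.95 ± 0.14 in shIDH1 cells (adjusted p = 8.23e-05, edgeR). Its scaled counts in shJOSD2 cells differed by 0.15 ± 0.14 on the log2 scale, which missed the threshold (adjusted p = 0.432, edgeR).

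The heavy chain and its partners were then set beside each other per length. FPKM of the 6 light chain genes known to pair with SLC3A2 (SLC7A5, SLC7A6, SLC7A7, SLC7A8, SLC7A10 and SLC7A11) summed to 82.4 ± 16.6 in control, 90.4 ± 7.42 in shIDH1 and 43.1 ± 1.49 in shJOSD2. The ratio of that sum to SLC3A2 was 3.25 ± 0.433 in control, 1.44 ± 0.217 in shIDH1 and 2.02 ± 0.134 in shJOSD2. SLC7A5 made up 81.6 ± 0.412% of the light chain sum in control, 68.4 ± 1.01% in shIDH1 and 69.4 ± 1.16% in shJOSD2. The other light chains differed between the knockdown groups. In shIDH1 libraries SLC7A11 held 10.6 ± 0.998% and SLC7A7, which exports arginine and lysine in exchange for neutral amino acids, 10.9 ± 0.615%, against 4.11 ± 0.809% and 4.0 ± 0.696% in control. In shJOSD2 libraries SLC7A6, a close relative of SLC7A7, held 21.7 ± 0.872% against 9.10 ± 1.20% in control, and SLC7A11 held 3.38 ± 0.229%. SLC7A8 was at or under 1.67% in every library, and it was uneven in control, at 0.264, 1.28 and 1.5 FPKM in replicates 1, 2 and 3.

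SLC7A7 moved beside SLC7A11. It was at 2.37, 3.65 and 3.86 FPKM in control, at 9.40, 10.4 and 9.78 in shIDH1 and at 2.13, 2.04 and 1.87 in shJOSD2, with no overlap of groups. The log2 changes were 1.57 ± 0.16 in shIDH1 cells (adjusted p = 3.39e-06, edgeR) and -0.86 ± 0.16 in shJOSD2 (adjusted p = 0.000934, edgeR). SLC7A6 had means of 7.39 ± 0.903 FPKM in the control group, 8.6 ± 0.517 with shIDH1 and 9.37 ± 0.411 with shJOSD2. It rose by 0.22 ± 0.08 in shIDH1 cells (adjusted p = 0.0374, edgeR), with overlapping ranges. Its log2 change of 0.20 ± 0.08 in shJOSD2 was not called (adjusted p = 0.0702, edgeR). Its FPKM range in shJOSD2, 9.11 to 9.85, lay above that in control, 6.55 to 8.34. The difference between the light chains was not tested.

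The log2 ratio of SLC7A5 to SLC3A2 FPKM was 1.38, 1.21 and 1.60 in control replicates 1, 2 and 3. It was 0.19, -0.19 and -0.09 in shIDH1 and 0.56, 0.48 and 0.40 in shJOSD2. SLC7A5 transcripts thus exceeded those of its heavy chain in control and were about level with them in shIDH1 cells, and no groups overlapped. The difference from control was -1.43 in shIDH1 and -0.92 in shJOSD2, each with an exact two-sided permutation p of 0.1, the smallest that 3 against 3 libraries allow (0.12 adjusted over 6 ratio tests). For SLC7A11 to SLC3A2 the log2 ratio was -2.76, -3.47 and -2.57 in control, -2.65, -2.80 and -2.73 in shIDH1 and -3.68, -4.01 and -3.95 in shJOSD2. Here shIDH1 lay within the control range, with a difference of 0.21 (exact permutation p = 0.8) that became -0.0615 without control replicate 2. The shJOSD2 ratio was lower than control by a difference of -0.95 (exact permutation p = 0.1).

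**Figure D4:**
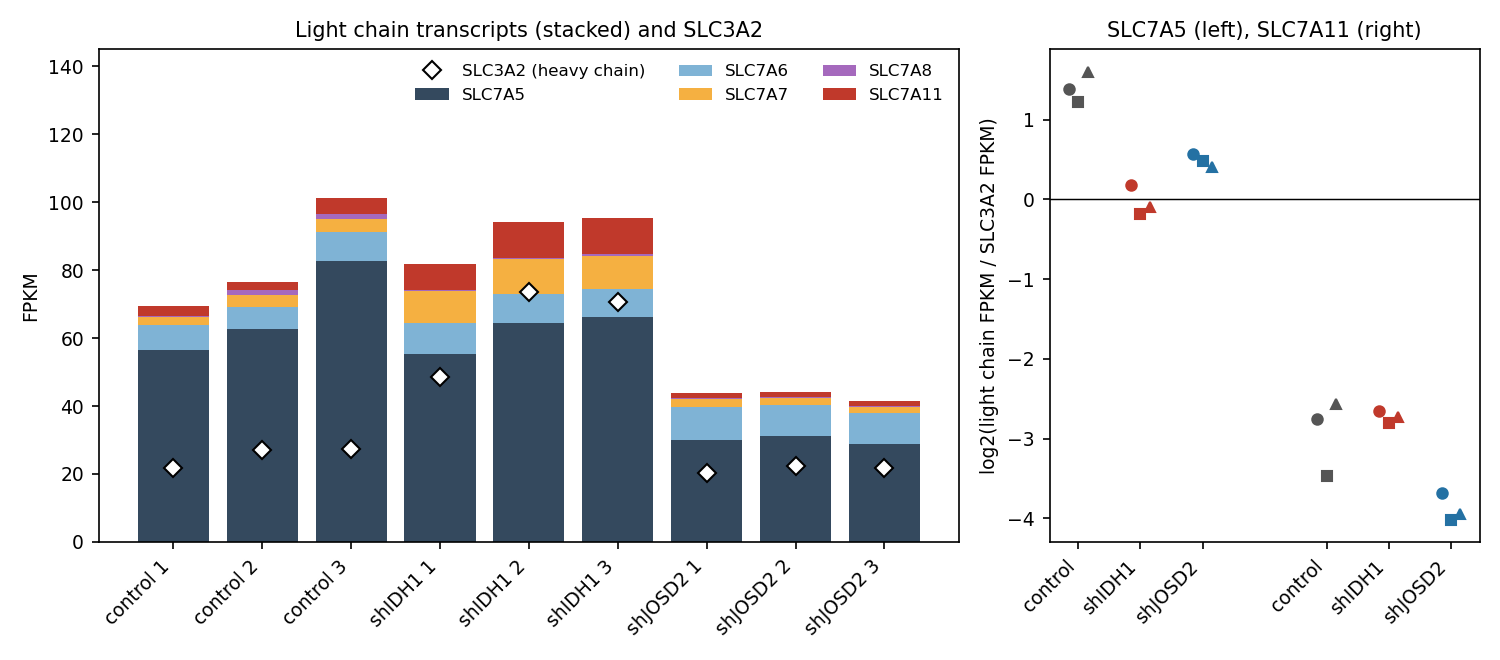
Left, stacked FPKM of the light chain genes (vertical axis) in each library (horizontal axis), with SLC3A2 as open diamonds; SLC7A10 was too low to draw. Right, log2 ratio of SLC7A5 and of SLC7A11 to SLC3A2 by group, 1 point per library, with the SLC7A5 ratio above 1 in all 3 control libraries and between -0.19 and 0.19 in shIDH1.

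The glutamine and alanine carriers differed among themselves. SLC38A2 (ENSG00000134294; chromosome 12, 46358188 to 46372773, minus strand) was at 54.7, 43.6 and 50.5 FPKM in control, at 107, 110 and 105 in shIDH1 and at 43.8, 44.3 and 43.7 in shJOSD2. The shIDH1 libraries were about alike and far above the rest, while shJOSD2 overlapped the lowest control library. It rose by 1.11 ± 0.07 in shIDH1 cells (adjusted p = 3.72e-08, edgeR) and fell by 0.32 ± 0.06 in shJOSD2 (adjusted p = 0.00181, edgeR). The latter call was lost with library totals in place of TMM scaling (-0.17, adjusted p = 0.0811, edgeR) and with limma on FPKM values.

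SLC38A1 (ENSG00000111371; chromosome 12, 46183063 to 46269951, minus strand), its neighbour on the chromosome, was at 40.9, 34.1 and 42.1 FPKM in control, at 43.6, 49.2 and 45.4 in shIDH1 and at 21.2, 23.4 and 21.5 in shJOSD2. It fell by 0.97 ± 0.08 in shJOSD2 (adjusted p = 1.57e-06, edgeR), with no overlap. In shIDH1 cells it rose by 0.24 ± 0.08 (adjusted p = 0.0207, edgeR), and this call was lost without control replicate 2 (0.17, adjusted p = 0.0815), shIDH1 replicate 2 (0.19, adjusted p = 0.102) or shIDH1 replicate 3 (0.24, adjusted p = 0.0521). It was also lost when control replicate 1 stood alone for the controls (0.21, adjusted p = 0.101) and in limma without a filter (0.24, adjusted p = 0.0812). The fitted rise was larger for SLC38A2 and the fitted fall larger for SLC38A1, a difference between genes that was not tested.

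SLC1A5 (ENSG00000105281; chromosome 19, 46774883 to 46788594, minus strand) was at 59.7, 71.4 and 73.8 FPKM in control, at 65.4, 92.5 and 89.3 in shIDH1 and at 34.7, 35.4 and 35.5 in shJOSD2. The log2 change in shIDH1 cells was 0.27 ± 0.12 and did not pass (adjusted p = 0.0928, edgeR). Replicate 1 was the low library there, and without it the change was 0.42 and passed (adjusted p = 0.00255, edgeR). It also passed with all libraries in DESeq2 (0.28, adjusted p = 0.0362) and with upper quartile factors (0.38, adjusted p = 0.0223, edgeR). With counts divided by 4 it passed too (0.29, adjusted p = 0.0491, edgeR). In 17 of 23 alternative settings it stayed not called. SLC1A5 fell by 1.11 ± 0.13 in shJOSD2 (adjusted p = 2.51e-05, edgeR), where the 3 libraries were nearly the same.

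SLC1A4 (ENSG00000115902; chromosome 2, 64988477 to 65023865, plus strand), which carries serine and alanine, was lower under both hairpins. It was at 5.19, 5.10 and 6.21 FPKM in control, at 3.38, 4.50 and 3.95 in shIDH1 and at 2.40, 2.42 and 2.09 in shJOSD2, with the 3 groups apart. It fell by 0.48 ± 0.12 in shIDH1 cells (adjusted p = 0.00446, edgeR) and by 1.40 ± 0.12 in shJOSD2 (adjusted p = 2.68e-06, edgeR). When control replicate 1 stood alone for the controls, the shIDH1 call was lost (-0.36, adjusted p = 0.104, edgeR).

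SLC7A1 (ENSG00000139514; chromosome 13, 29509414 to 29595688, minus strand), the arginine and lysine carrier, was at 28.2, 27.3 and 35.1 FPKM in control, at 22.0, 25.7 and 25.6 in shIDH1 and at 11.4, 10.8 and 10.5 in shJOSD2. Its fall in shJOSD2 cells, 1.62 ± 0.10 on the log2 scale or 3.06-fold (adjusted p = 2.06e-07, edgeR), was the largest of the 10 there. In shIDH1 cells it fell by 0.31 ± 0.10 (adjusted p = 0.0182, edgeR). That call was lost without control replicate 3 (-0.18, adjusted p = 0.108) or without shIDH1 replicate 1 (-0.23, adjusted p = 0.0785). It was also lost with upper quartile factors (-0.20, adjusted p = 0.112), with control replicate 1 standing alone (-0.17, adjusted p = 0.243) and in limma without a filter (-0.29, adjusted p = 0.0697).

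SLC6A9 (ENSG00000196517; chromosome 1, 43991500 to 44031467, minus strand), the glycine carrier, was the least abundant and the least certain. It was at 0.953, 1.41 and 1.9 FPKM in control, at 0.445, 0.968 and 0.899 in shIDH1 and at 0.514, 0.641 and 0.654 in shJOSD2, and shIDH1 overlapped both other groups. It fell by 1.38 ± 0.31 in shJOSD2 (adjusted p = 0.00334, edgeR) and by 0.88 ± 0.30 in shIDH1 cells (adjusted p = 0.0282, edgeR). The shIDH1 call was lost without control replicate 2 (adjusted p = 0.0637), control replicate 3 (adjusted p = 0.143) or shIDH1 replicate 1 (adjusted p = 0.0866), and without the filter on low counts (adjusted p = 0.0724 in edgeR and 0.0958 in limma). With control replicate 1 standing alone both calls were lost (-0.26, adjusted p = 0.651 in shIDH1, and -0.77, adjusted p = 0.174 in shJOSD2). Between the hairpins the log2 difference of 0.50 ± 0.30 was not called (adjusted p = 0.215, edgeR), and without shIDH1 replicate 1 it was 0.79 and called (adjusted p = 0.0298, edgeR). Its counts ran from 169 to 709, while CCDC24, which overlaps it on the other strand, had 499 to 724. Without a stated strand setting their reads cannot be told apart.

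Across the 9 libraries the transporters formed a graded set, which is given as a description because the points share groups and scaling. Pearson's r of log2 scaled counts was 0.99 for SLC7A5 with SLC7A1 and 0.98 for SLC1A4 with SLC7A1. SLC3A2 and SLC38A2 had an r of 0.95, and SLC7A11 and SLC38A2 0.95. The lowest values were -0.14 for SLC6A9 with SLC43A1, -0.0043 for SLC38A2 with SLC6A9, 0.07 for SLC1A4 with SLC43A1, 0.15 for SLC3A2 with SLC6A9 and 0.19 for SLC7A1 with SLC43A1. Among all 21492 genes, the closest to SLC7A11 were UGDH at an r of 0.99, CLDN1 at 0.99 and TRIM44 at 0.99. SLC7A1 was the third closest gene to SLC7A5 (0.99), after PHF13 and SLC25A17. SARS1, the seryl-tRNA synthetase gene, was the closest to SLC3A2 (0.99), followed by DNAJC27 and AC126696 (both 0.99). SARS1 was at 50.6 FPKM in control and at 82.6 and 46.4 under shIDH1 and shJOSD2. YARS1, the tyrosyl-tRNA synthetase gene, was the second closest to SLC1A4 (0.99), after CLCF1. TXNRD1, a thioredoxin reductase, was the third closest to SLC7A1 (0.99), after MAP2K3 and POGK. The highest values were those of SLC38A2 with SDCBP (0.9985), PBXIP1 (0.9972) and HAVCR1 (0.997). The closest genes were SLC35A2 for SLC1A5 (0.994), TMED5 for SLC38A1 (0.9925), SRXN1 for SLC6A9 (0.9698) and ZFR for SLC43A1 (0.9843). Values this high were thus found for each transporter.

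ATF4 is a known activator of several of these transporters. Its transcript was at 119, 118 and 118 FPKM in control, at 180, 215 and 216 in shIDH1 and at 70.5, 75.3 and 77.9 in shJOSD2, so that the groups lay apart on either side of control. It rose by 0.78 ± 0.08 in shIDH1 cells (adjusted p = 3.17e-06, edgeR) and fell by 0.82 ± 0.08 in shJOSD2 (adjusted p = 5.72e-06, edgeR). ATF4 is controlled mainly at translation, and its protein was not measured. Of the 5 transporters with C/EBP-ATF letters, SLC3A2 and SLC38A1 rose in shIDH1 cells, SLC1A4 and SLC7A1 fell and SLC1A5 was not called. In shJOSD2 cells SLC3A2 was not called and the rest of them fell. Of those whose windows lacked the letters, SLC38A2 and SLC43A1 rose in shIDH1 cells, SLC6A9 fell and SLC7A5 was not called. In shJOSD2 cells SLC43A1 was not called and the rest of these fell. The part of ATF4 was not tested. Of 15 genes for GCN2, related kinases, ATF4 and its partners, 10 were higher and 3 lower in shIDH1 cells, where 24.5% and 25.6% of all genes were. Their median log2 change was 0.55 against 0.01 for all genes. DDIT3, which encodes CHOP, was at 8.57, 7.04 and 10.3 FPKM in control and at 68.0, 95.2 and 103 in shIDH1, a rise of 3.36 ± 0.17 (adjusted p = 1.03e-08, edgeR), and ATF3 rose by 1.98 ± 0.19 there. In shJOSD2 cells 3 of the 15 were higher and 6 lower, beside 18.2% and 20.1% of all genes, with a median of -0.14 against 0.03. TRIB3, a pseudokinase induced by ATF4, fell by 1.57 ± 0.15 (adjusted p = 6.49e-06, edgeR), and NUPR1, a stress-induced chromatin protein, by 1.3 ± 0.16. DDIT3 was among the 3 higher, at 12.3 to 14.1 FPKM in shJOSD2 against 7.04 to 10.3 in control, a call lost under several settings. PPP1R15A was at 34.4 to 38.0 FPKM in shJOSD2 and at 22.1 to 25.0 in control. The list thus did not move as 1 group there.

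ATF4 targets of amino acid supply other than the transporters were taken from a list of 22 genes, of which 21 were tested. In shJOSD2 cells 15 were lower and 2 higher, beside 20.1% and 18.2% of all genes, with a median of -0.94 against 0.03. ASNS, asparagine synthetase, was at 28.5, 28.2 and 28.3 FPKM in control and at 7.96, 8.52 and 8.41 in shJOSD2, a fall of 1.92 ± 0.15 (adjusted p = 1.65e-06, edgeR). PSAT1, an enzyme of serine synthesis, fell by 1.87 ± 0.12 (adjusted p = 2.34e-07, edgeR). In shIDH1 cells the same list was mixed, with 9 higher and 6 lower, beside 24.5% and 25.6% of all genes, and a median of 0.14 against 0.01. SESN2, a leucine sensor upstream of mTORC1, rose by 2.06 ± 0.14 there, and CTH, which makes cysteine from cystathionine, by 1.95 ± 0.17. PHGDH was lower, at 5.18 to 6.26 FPKM in shIDH1 against 16.4 to 20.2 in control. The shIDH1 ranges of PSPH, ALDH18A1 and PYCR1 also lay below those of control. ASNS and PSAT1 had log2 changes of 0.25 ± 0.15 and -0.07 ± 0.11 in shIDH1 cells that did not pass. SESN2 was also higher in shJOSD2 cells, by 0.59 ± 0.13 (adjusted p = 0.0039, edgeR), against the direction of most of the list. So was VLDLR, at 7.25 to 7.51 FPKM in shJOSD2 against 3.19 to 3.66 in control. MTHFD2, an enzyme of mitochondrial folate, had 48, 473 and 458 counts in control replicates 1, 2 and 3 and 20 to 60 in the knockdown libraries, so its call in either comparison rests on control replicates 2 and 3.

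**Figure D5:**
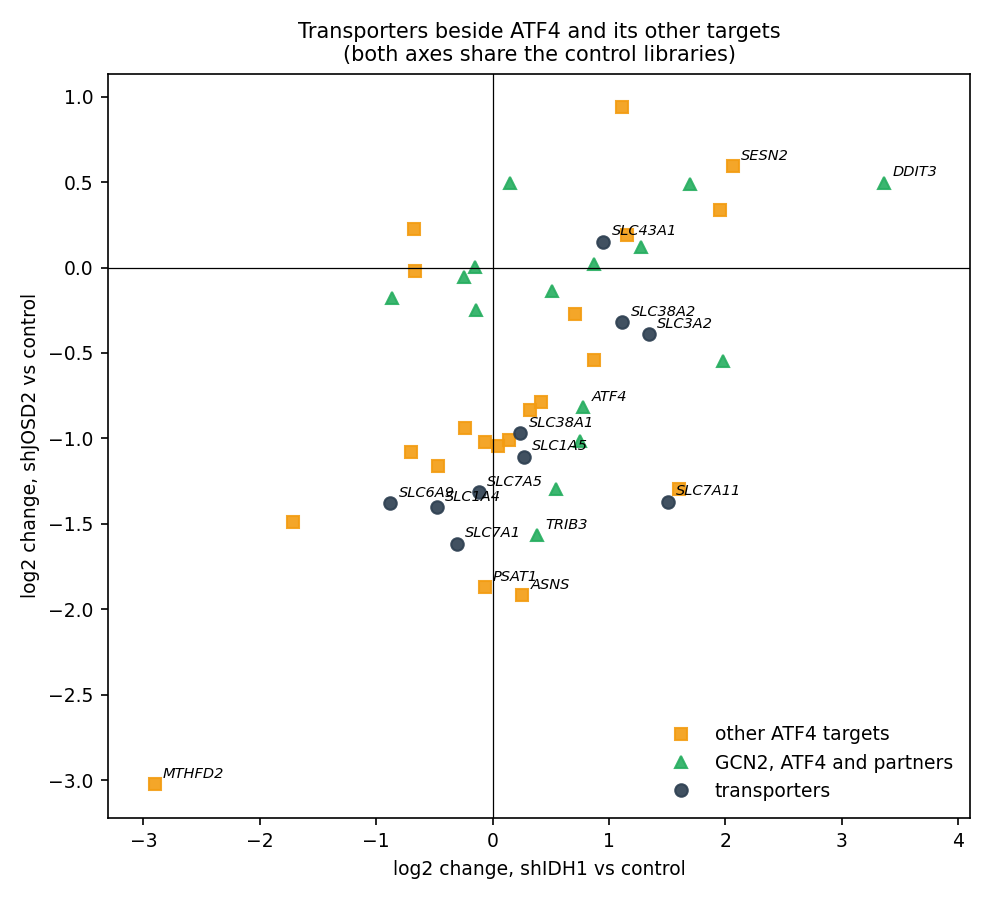
Fitted log2 change in shIDH1 cells (horizontal axis) and in shJOSD2 cells (vertical axis) of the 10 transporters (circles), the other ATF4 targets (squares) and GCN2, ATF4 and partners (triangles). Both axes use the same control libraries, so the layout is not a correlation to be read; 9 of the 10 circles lie below 0 on the vertical axis, SLC43A1 being the exception, and DDIT3 is farthest to the right at 3.36.

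Other factors with known transporter targets were set beside them. MYC was at 51.0, 48.2 and 47.4 FPKM in control, at 81.6, 86.6 and 86.9 in shIDH1 and at 80.5, 82.1 and 80.1 in shJOSD2. It rose by 0.80 ± 0.06 and 0.58 ± 0.06 (adjusted p = 1.43e-07 and 6.1e-06, edgeR) in shIDH1 and shJOSD2 cells. Of the 3 transporters that hold E-box letters near a start, SLC43A1 rose in shIDH1 cells and was not called in shJOSD2 cells. SLC7A5 and SLC1A5 were not called in shIDH1 cells and fell in shJOSD2 cells. The part of MYC was not tested either. NFE2L2 rose by 0.82 ± 0.06 in shIDH1 cells (adjusted p = 3.12e-07, edgeR) and stood at -0.11 ± 0.06 in shJOSD2 cells, not called, and at 0.0409 without scaling factors. BACH1, a repressor at the same elements, rose by 1.36 ± 0.07 in shIDH1 and 0.63 ± 0.07 in shJOSD2 cells. YAP1 had log2 changes of 0.09 ± 0.08 in shIDH1 and -0.17 ± 0.08 in shJOSD2 cells and WWTR1 changes of 0.01 ± 0.09 and -0.04 ± 0.09, none of which passed. The sign of the WWTR1 values turned with the scaling. With upper quartile factors YAP1 passed in shIDH1 cells (0.20, adjusted p = 0.0462, edgeR). Without shJOSD2 replicate 2 it passed in shJOSD2 cells (-0.23, adjusted p = 0.0438, edgeR). Of the 14 transcription factor genes listed, 8 were higher and 4 lower in shIDH1 cells, beside 24.5% and 25.6% of all genes. In shJOSD2 cells 5 were higher and 5 lower, beside 18.2% and 20.1% of all genes, and 3 and 2 when control replicate 1 stood alone.

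Cystine taken in by SLC7A11 is used to make glutathione, and 14 genes around cystine and glutathione were listed. The list is broader than the enzymes of glutathione, since it also holds SLC3A1, CD44, TXNRD1 and AIFM2. In shIDH1 cells 8 were higher and 3 lower, beside 24.5% and 25.6% of all genes, with a median of 0.27 against 0.01. In shJOSD2 cells 1 was higher and 8 lower, beside 18.2% and 20.1% of all genes, with a median of -0.38 against 0.03. GGT1, which splits glutathione outside the cell, rose by 1.41 ± 0.06 in shIDH1 cells and fell by 0.36 ± 0.06 in shJOSD2 cells. GGCT, which breaks down gamma-glutamyl amino acids, and GSS, glutathione synthetase, fell by 2.65 ± 0.17 and 1.20 ± 0.07 in shIDH1 cells, so the list did not move as 1 group. In shJOSD2 cells TXNRD1 fell by 0.91 ± 0.09, and AIFM2, the ferroptosis suppressor FSP1, by 0.70 ± 0.07. Each of these passed edgeR's test with Benjamini-Hochberg adjustment.

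Other transporters of the plasma membrane were called in both directions. Of 26 listed, 22 were in the table and 15 were tested. In shIDH1 cells 5 were higher and 3 lower, beside 24.5% and 25.6% of all genes, with a median of 0.20. These 8 calls became 5 without control replicate 2, shIDH1 replicate 1 or shIDH1 replicate 2. In shJOSD2 cells 4 were higher and 4 lower, beside 18.2% and 20.1% of all genes, with a median of -0.37. The 4 lower were SLC7A2 (-1.10 ± 0.13), SLC7A7, SLC7A8 and SLC43A2 (-0.48 ± 0.16), and no test set this list against the 10 transporters. SLC1A1, a glutamate and cysteine carrier also called EAAC1, was at 2.00, 1.57 and 1.25 FPKM in control, at 4.67, 4.36 and 4.50 in shIDH1 and at 4.71, 5.68 and 5.48 in shJOSD2. It rose by 1.48 ± 0.15 and 1.57 ± 0.15 (adjusted p = 2.92e-06 and 4.91e-06, edgeR). SLC7A8 was called lower in both comparisons, but its log2 change was 0.62 in shIDH1 and 0.30 in shJOSD2 cells with control replicate 1 as the lone control. SLC38A5 had 0 counts in the control libraries and 31, 29 and 38 in shJOSD2, and SLC6A19 had 0, 30 and 48 in control and 0 in shIDH1, which is too few for a fold.

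Carriers of inner membranes were counted as well. Of 10 tested lysosomal transporters, 8 were higher and 2 lower in shIDH1 cells, beside 24.5% and 25.6% of all genes, with a median of 0.43 against 0.01. Without shIDH1 replicate 2, or with control replicate 1 as the lone control, 5 were higher and 1 lower. In shJOSD2 cells 3 were higher and 2 lower, beside 18.2% and 20.1% of all genes. SLC17A5 (sialin), an exporter of sialic acid and acidic amino acids, rose by 1.31 ± 0.11 in shIDH1 cells and SLC36A1, a proton-coupled exporter, by 1.0 ± 0.09. In shJOSD2 cells SLC29A3, a nucleoside carrier, rose by 0.89 ± 0.08 and SLC36A4 fell by 0.64 ± 0.10. Of 11 tested mitochondrial carriers 3 were higher and 1 lower in shIDH1 cells, 4 in all where 50.1% of all genes were called. In shJOSD2 cells 3 were higher and 4 lower, where 38.3% of all genes were called, and 2 and 2 with the lone control. The 1 lower in shIDH1 cells was SLC25A22, a glutamate carrier, at 17.8, 18.8 and 16.8 FPKM in control, at 3.43, 3.30 and 3.78 with shIDH1 and at 9.68, 9.34 and 9.02 with shJOSD2. It fell by 2.34 ± 0.08 and by 1.08 ± 0.08 (adjusted p = 1.19e-09 and 7.99e-07, edgeR), with no overlap of groups.

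Genes through which mTORC1 senses amino acids changed in both directions. Of 34 tested, 10 were higher and 12 lower in shIDH1 cells, beside 24.5% and 25.6% of all genes, with a median of -0.04. In shJOSD2 cells 10 were higher and 4 lower, beside 18.2% and 20.1% of all genes, with a median of 0.02 against 0.03. With control replicate 1 as the lone control, 8 were higher and 1 lower there. CASTOR1, an arginine sensor, rose by 1.53 ± 0.17 in shIDH1 cells and FNIP2, a folliculin partner, by 2.05 ± 0.08. SESN3, a relative of SESN2, rose by 1.83 ± 0.20 in shJOSD2 cells, and RRAGD, a Rag GTPase, rose by 0.97 ± 0.08 and 0.86 ± 0.08 under the 2 hairpins. Each rise passed edgeR's test with Benjamini-Hochberg adjustment.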

How the data were processed

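Strand-marked (dUTP) libraries were built from poly(A) RNA per the labels' protocols, with molecular identifiers, and sequenced in pairs. The submitters' processing notes name cutadapt 1.9, HISAT2 2.0.4, UMI-tools, StringTie 1.3.4d and GRCh38. What each did, the annotation release and how reads were counted, strand included, were not given in the sources used here. The authors deposited 1 table with whole-number counts and FPKM values for 36225 genes and 9 libraries, per the file headers. Low counts peak at 4, 8, 12 and 16 (10737 values of 4 against 3780 of 5), so 1 fragment may stand for about 4 counts, which leaves counting error larger than the counts imply.

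All 9 libraries entered 1 fit in edgeR 4.0.16 (R 4.3.3; filterByExpr, 21492 genes; TMM; quasi-likelihood F-test; Benjamini-Hochberg at 0.05; no block). Each SE was taken as |log2 change| divided by the root of the F statistic. FPKM levels are mean ± SD over 3 libraries. Ratios were tested by exact permutation (Python 3.11.15, scipy 1.17.1). The step was tested on simulated data. Replicate libraries differed beyond sampling noise, and none was counted as a repeat. Alternatives were DESeq2 1.42.0, other scalings and filters, limma 3.58.1 on FPKM or TPM (pseudocounts 1 and 0.1), a replicate block, only the 2 groups compared, counts divided by 4, control replicate 1 as the lone control, and each library left out; with a lone library, it is assumed to vary like the other groups.

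The members and the 16 gene lists (207 genes, 200 in the table) were chosen with earlier results of these data known. Named genes are the members, IDH1, JOSD2, ATF4, MYC, NFE2L2, YAP1 and WWTR1, up to 3 called genes per list and comparison, the top marker of each cell type, near copies and antisense genes, and the 3 genes with the highest r to each member; not all are printed, and 1 gene of the transcription factor list is not reported here. YARS1, SLC7A6, CCDC24, ALB, VLDLR, PHGDH, PSPH, ALDH18A1, PYCR1 and second comparisons of named genes were added after their values were seen. Promoters are RefSeq (GRCh38.p14) and exons GENCODE release 29. Figures used matplotlib 3.10.9.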

Additional observations from a re-analysis of the deposited data

How the results depend on the processing

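Over 681 refits of single transporters (the 3 comparisons under each alternative or left-out library), 644 kept direction and side of the threshold, 22 lost a call, 13 gained one and 2 turned sign. Both sign changes were of SLC7A5 in shIDH1 cells, which was not called: 0.17 with control replicate 1 as the lone control and 0.0615 without control replicate 3 (-0.23 without control replicate 1, the lowest). The number of transporters called in shIDH1 cells was 8, and 5 under limma on log2(FPKM + 1) without a filter and 5 (5 higher, 0 lower) with the lone control; the cause was not tested. Leaving out 1 library at a time gave 6 to 8, in shJOSD2 cells 8 to 9 and between hairpins 9 to 10. Genes called over the whole table ranged then from 9724 to 10635, 6939 to 8248 and 8430 to 9927.

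The ratio of SLC7A11 to SLC3A2 in shIDH1 against control turned from 0.21 to -0.0615 without control replicate 2, the lowest over left-out libraries, whose highest was 0.39. The other ratio differences ranged from -1.22 to -0.77 and 1.09 to 1.26 for SLC7A11, and from -1.54 to -1.33, -1.01 to -0.82 and -0.62 to -0.44 for SLC7A5.

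Replicate numbers did not pair the libraries (correlations of deviations -0.018 to 0.038). With a replicate block 9, 9 and 9 transporters were called in the 3 comparisons, SLC1A5 in shIDH1 (0.26, adjusted p = 0.0374, edgeR) and SLC3A2 in shJOSD2 (-0.38, adjusted p = 0.00936, edgeR) being added, and 10416, 7823 and 9296 genes over the table.

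Library totals without TMM factors moved the median of all genes to 0.18 in shJOSD2 and -0.21 between hairpins, with 5638 higher and 2934 lower calls in shJOSD2. Among the factors, NFE2L2 in shJOSD2 was 0.0409 under those totals and 0.0354, 0.0371 and 0.0354 in 3 limma fits on FPKM. WWTR1 in shJOSD2 was 0.0458 with upper quartile factors, 0.11 with totals or limma on FPKM, 0.0387 on TPM, 0.0138 with the lone control, 0.0574 without control replicate 3 and -0.10 without control replicate 2. WWTR1 in shIDH1 was -0.0017 on TPM and -0.0117, -0.0535 and -0.0919 without control replicates 1 and 2 and shIDH1 replicate 1. SLC7A8 turned to 0.62 and 0.30 with the lone control. Of 552 counts over the other lists, 19 moved by more than 1.5 times; the other plasma membrane transporters gave 3 to 5 calls in shIDH1 cells under those settings, against 8. TRIB3 (higher) in shIDH1 and DDIT3 (higher) and ATF3 (lower) in shJOSD2 lost their calls under several settings. SLC6A9, at 169 to 709 counts, is the transporter whose depth limits it most.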

Other observations

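SLC38A2 varied less among libraries than any other of the 10 transporters in both knockdown groups, with a coefficient of variation of 2.35% in shIDH1 and 0.751% in shJOSD2, against 11.3% in control. In control libraries SLC6A9 and SLC7A11 varied most, at 33.3% and 32.3%. ACTA2, the most abundant fibroblast marker, was at 11.7 to 28.6 FPKM over the 9 libraries, and the 8 fibroblast markers summed to 19.3 to 22.1 FPKM in control, 42.2 to 44.5 in shIDH1 and 43.5 to 44.6 in shJOSD2. The 10 hepatocyte markers summed to 39.1 to 85.6 FPKM in control, 93.3 to 98.5 in shIDH1 and 58.5 to 60.7 in shJOSD2, and did not move together: 2 were called higher and 3 lower in shIDH1 cells. FGB, a fibrinogen chain gene, had means of 1.71, 42.9 and 7.14 FPKM in control, shIDH1 and shJOSD2, SERPINA1 of 35.1, 48.9 and 46.3, and APOA1 of 29.5, 2.98 and 4.32, with 2.91 to 45.6 among the control libraries. Leukocyte markers, led by CD68, summed to 32.2 to 39.5, 26.1 to 29.8 and 25.5 to 33.2 FPKM in the same order. Their part in the transporter values was not tested.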
